A study of Mus musculus with 9 samples.

Results

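Rab proteins are small GTPases that mark the membranes of vesicle traffic. Each cycles between a GDP form held in the cytosol and a GTP form on a membrane, where it gathers the tethers, motors and sorting proteins that define an early endosome, a lysosome, a Golgi stack or a secretory granule. In phagocytes and antigen-presenting cells they steer the maturation of phagosomes and the traffic of antigen and MHC molecules, and in T cells they serve receptor recycling and the release of granules. The genes described here were all rows of a count table whose symbol was Rab followed by a number and, in some, a letter or a further digit. This rule took 59 of the 50508 gene rows, and it used no measured value.

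RNA was measured in 3 populations sorted from the spleen of naive, untreated mice aged 8 weeks: conventional T cells (T), conventional dendritic cells (DC) and a population that the submitters named TDC. All mice, those of the controls included, were homozygous for the Zbtb46-GFP reporter, which places green fluorescent protein under a locus used by conventional DC, so no group had an unmodified locus. Each population had 3 libraries, and a library stood for a pool of spleens, of 5 mice in replicate 1 and of 6 mice in the other two. The gates of the sort were not given in the sources used here. Libraries held 10986544 to 25676640 reads, and values below are read counts scaled to library size (CPM) with TMM normalisation, which aligns libraries on the bulk of their genes. They are listed in the order of replicates 1, 2 and 3, and a single read came to 0.0382 to 0.0896 CPM.

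The sort labels were checked against marker genes. A list of 8 T cell genes summed to 5683 to 8444 CPM in T, 21.0 to 27.1 in DC, where Cd3e and Cd3g had no read, and 62.3 to 197 in TDC, where all 8 had reads. A list of 8 conventional DC genes summed to 9.97 to 32.3 CPM in T, 44020 to 72870 in DC and 8277 to 16580 in TDC. Of 11 genes of red pulp macrophages and monocytes, all had reads in TDC, with a sum of 38070 to 57110 CPM against 204 to 586 in T and 237 to 730 in DC. The TDC sum came from macrophage genes such as C1qb and Vcam1. Of the monocyte genes, Ly6c2 was lower in TDC (1.84 to 9.53 CPM) than in T (197 to 564, adjusted p = 0.000168), and Ccr2 was at 48.5 to 169.7 CPM in DC and 3.32 to 55.7 in TDC. Erythroid genes summed to 597 to 2068 CPM in TDC and to at most 22.4 in the controls, and B cell genes to 207 to 278 in DC and 70.01 to 137 in TDC. Neutrophil genes summed to at most 64.6 CPM in TDC, where Camp and Ly6g had no read, platelet genes to 12.3 to 18.5, NK and plasmacytoid DC genes to 189.9 to 406 (58.5 to 162 in the controls), and mast cell and basophil genes to at most 2.47 in any library. Of the NK and plasmacytoid DC sum in TDC, 177 to 398 CPM was Bst2, while the NK gene Klrb1c had 4 reads in TDC and Ncr1 none. Since these are bulk samples, fewer cells of a type and less RNA per cell cannot be told apart.

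The stretch of 200 bases before the transcription start is shown for 3 members with different patterns described below: Rab20, high in TDC alone, Rab32, high in DC and TDC, and Rab21, lower in TDC than in DC. They were chosen after their values had been seen. The sequences are from RefSeq on GRCm38.p6, 5′ to 3′ on the strand of the gene, which is the minus strand in all 3. Capitals mark 1 of 2 motifs searched on both strands: the E-box CACGTG, bound by factors of the MiT/TFE family that control lysosome genes, and the myeloid factor PU.1's GAGGAAGT.
Rab20, chr8:11478641-11478840: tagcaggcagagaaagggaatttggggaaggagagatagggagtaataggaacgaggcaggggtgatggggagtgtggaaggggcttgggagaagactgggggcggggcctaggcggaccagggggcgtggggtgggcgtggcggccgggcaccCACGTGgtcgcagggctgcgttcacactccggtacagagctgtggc
Rab32, chr10:10558208-10558407: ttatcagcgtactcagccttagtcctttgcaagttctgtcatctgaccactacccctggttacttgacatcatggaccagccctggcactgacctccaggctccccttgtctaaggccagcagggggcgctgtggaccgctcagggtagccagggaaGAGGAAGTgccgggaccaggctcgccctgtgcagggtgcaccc
Rab21, chr10:115315592-115315791: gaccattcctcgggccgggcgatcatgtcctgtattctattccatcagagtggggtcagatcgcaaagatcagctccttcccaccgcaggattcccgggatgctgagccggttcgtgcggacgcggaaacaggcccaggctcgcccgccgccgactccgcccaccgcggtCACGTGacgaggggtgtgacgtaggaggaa

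The motifs begin 46 bases before the start in Rab20, 43 in Rab32 and 30 in Rab21. Promoter windows of 300 bases, from 250 before to 50 after the start, were at hand for 48 of the 59 members. These came to 60 windows, since some genes had several. An E-box lay in 6 of the 60 windows, each of a different gene (Rab5a, Rab20, Rab21, Rab23, Rab24 and Rab27a), beside 7.15% of all 32851 windows of that length. The PU.1 letters lay in 2 of the 60 (Rab2b and Rab32), against 3.2% of all windows. The 2 members with an E-box shown here had opposite patterns in TDC, and Rab5a, with the same motif, was level across the populations. Each promoter shown holds a motif, so they do not represent their patterns. Rab34, also high in TDC alone, and Rab39, also high in DC and TDC, had neither motif in their windows. A match describes letters only and shows no binding.

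Of the 59 members, 47 had enough reads to be tested. Rab3b, Rab9b, Rab15, Rab27b and Rab44 had no read in any library. Another 7 (Rab3c, Rab17, Rab25, Rab33a, Rab36, Rab39b and Rab40b) had at most 67 reads over the 9 libraries, and none of them passed 1.85 CPM in a library. Tests were edgeR's quasi-likelihood test over all 14708 genes with enough reads, and a member is said to be higher or lower, to rise or to fall, only at an adjusted p under 0.05. By this rule 20 members differed in at least 1 comparison and 27 in none.

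In DC against T, 8 of 47 members (17%) were higher, beside 15.4% of all genes tested, and 2 (4.26%) were lower, beside 8.41%. TDC against T gave 13 higher (27.7%, beside 21.8% of all genes) and 6 lower (12.8%, beside 11.2%). TDC against DC gave 6 higher (12.8%, beside 9.55%) and 3 lower (6.38%, beside 4.6%). Taken over the whole family these shares were near those of all genes, and they are no result about the Rab genes. The members' median log2 fold changes were 0.14, 0.41 and 0.24 in the 3 comparisons, beside 0.08, 0.14 and 0.01 for all genes. Both TDC comparisons share the TDC libraries, and each control enters a pair of comparisons. Rab12, Rab1a, Rab20, Rab34 and Rab38 were above both controls in TDC (5 of 47 members, beside 7.06% of all genes), and Rab33b was below both (1 of 47, beside 1.69%). Rab30 was above T and below DC, and Rab4a above DC and below T. The members divide unevenly by role, and they are taken in that order below.

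**Figure D1:**
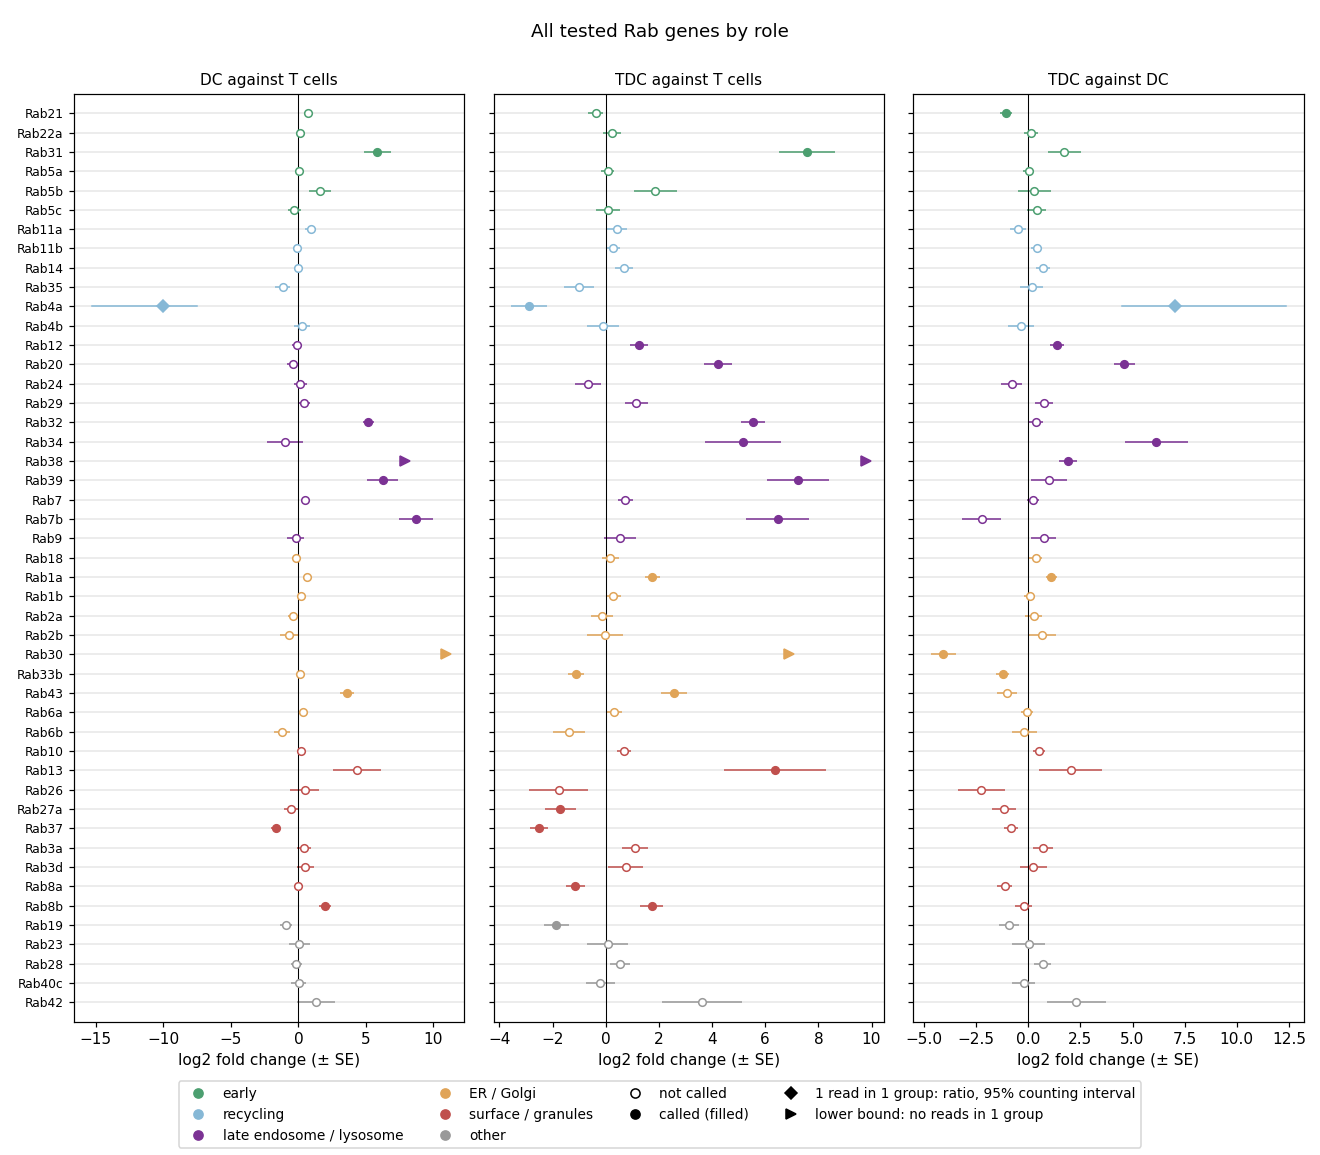
Log2 fold change with its SE (x axis) for each of the 47 tested Rab genes, coloured by role, in DC against T, TDC against T and TDC against DC. Filled points are called at an adjusted p under 0.05, triangles are lower bounds against T cells without a read (Rab30, Rab38), and diamonds are Rab4a, which had 1 read in DC, with its 95% counting interval. In TDC against T, 7 late endosomal genes are called to the right of 0, of which Rab38 is drawn as a triangle, and none to the left.

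Early endosomes receive cargo from the cell surface and are marked by the Rab5 proteins, with Rab21, Rab22a and Rab31 beside them. All 6 members on this list were tested: 1 was higher in DC than in T and in TDC than in T (Rab31 in each), and 1 was lower in TDC than in DC (Rab21). A single gene is 16.7% of this list, beside 15.4%, 21.8% and 4.6% of all genes in those directions. The Rab5 genes did not pass the test in any comparison. Rab5a, which drives the fusion of early endosomes, was at 94.2, 89.0 and 92.3 CPM in T, 97.5, 93.8 and 94.9 in DC and 87.8, 93.1 and 109 in TDC. Its log2 fold changes were 0.06 ± 0.25, 0.07 ± 0.25 and 0.02 ± 0.25 (SE), in the order DC against T, TDC against T and TDC against DC. All 9 libraries thus lay between 87.8 and 109 CPM.

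Rab31, also known as Rab22b, works between the trans-Golgi network, early endosomes and phagosomes. It was at 0, 1.43 and 1.08 CPM in T, 49.6, 15.9 and 85.2 in DC and 100.2, 241 and 161 in TDC. All 9 libraries fell in the order T, DC, TDC without overlap. It rose in DC against T by a log2 fold change of 5.85 ± 0.98 (adjusted p = 0.00159) and in TDC against T by 7.58 ± 1.05 (adjusted p = 0.000397). Between TDC and DC the log2 fold change was 1.73 ± 0.79 (adjusted p = 0.184, or 0.0399 by limma-voom), so that step did not pass the main test. Without T replicate 2, 1 of the 2 T libraries with reads, the log2 fold change of TDC against T was 8.17 (adjusted p = 0.00203), and that of DC against T was 6.43 (adjusted p = 0.00608). Without DC replicate 3 the latter was 5.24 (adjusted p = 0.00248).

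Rab21, which accompanies integrins through early endosomes, was at 38.2, 43.6 and 43.6 CPM in T, 75.1, 55.9 and 72.4 in DC and 29.8, 33.4 and 33.9 in TDC. The TDC libraries were below all others. Against DC the log2 fold change was -1.07 ± 0.28 (adjusted p = 0.0299), and against T -0.37 ± 0.28 (adjusted p = 0.349). The call against DC was a narrow one: it was lost on leaving out any library except DC replicate 2 (adjusted p 0.0505 to 0.102), with no low-count filter (0.112), in a fit of these 2 groups alone (0.0666) and with the replicate number as a block (0.0866). Rab22a, the nearest relative of Rab31, was at 47.9 to 88.3 CPM over all 9 libraries, with overlap in every comparison.

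Recycling endosomes return receptors to the surface, by a fast route that uses Rab4 and a slower one that uses Rab11. Of 9 listed members 6 were tested, and Rab4a alone passed the test, in all 3 comparisons. It was at 14.8, 20.6 and 17.5 CPM in T and 3.68, 1.84 and 1.71 in TDC, while the DC libraries held 1 read in all (0.0382 CPM in replicate 1). The 3 populations did not overlap. TDC were lower than T (log2 fold change -2.87 ± 0.68, adjusted p = 0.00835). Over each group's summed reads, TDC stood 131-fold above DC (97 reads against 1, 95% exact counting interval 22.9 to 5215, adjusted p = 0.00142) and T 1030-fold above DC (969 reads against 1, interval 184 to 40710, adjusted p = 7.43e-05). Cd3e, a T cell gene, followed the same order, with 325 to 393 CPM in T, no read in DC and 4.96 to 11.4 in TDC. So did Cd3d, Cd3g, Trac, Cd2, Lat and Bcl11b of the T cell list. These genes with Cd3e were 28.7-fold (Bcl11b) to 51.9-fold (Cd3g) lower in TDC than in T, and Rab4a was 7.33-fold lower. Cd5, the remaining gene of the list, did not follow that order, with 221 to 299 CPM in T, 19.6 to 26.3 in DC and 4.07 to 17.1 in TDC. The 1 DC read of Rab4a lay in DC replicate 1, without which both calls against DC stood (adjusted p = 0.00606 for TDC and 0.000591 for T). The part of T cell RNA in the TDC value of Rab4a was not tested.

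The paralogue Rab4b did not follow Rab4a: its libraries overlapped in all 3 comparisons (5.07 to 16.0 CPM). An annotated gene on the same strand, Gm21983, shares 1280 exonic bases with Rab4b, and reads in the shared part could not be assigned to either. Rab14, which works between the Golgi and recycling endosomes and on phagosomes, was at 302, 254 and 208 CPM in T, 231, 362 and 163 in DC and 479, 398 and 362 in TDC. Its TDC libraries were above those of T without overlap, but the log2 fold change of 0.70 ± 0.34 did not pass (adjusted p = 0.139). Rab11a, the defining Rab of slow recycling, was at 102, 139 and 68.4 CPM in T, 186, 262 and 128 in DC and 185, 101 and 125 in TDC, with overlap throughout. Rab35 was at 6.81 to 16.2 CPM in T and 3.81 to 6.50 in DC (log2 fold change -1.18 ± 0.56, adjusted p = 0.161).

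The late list covers late endosomes, lysosomes, phagosomes and autophagosomes. Of its 14 members 11 were tested: 4 were higher in DC than in T, 7 in TDC than in T and 4 in TDC than in DC, and none was lower in any comparison. As shares of the 11 these are 36.4%, 63.6% and 36.4%, beside 15.4%, 21.8% and 9.55% of all genes. The median log2 fold change of the list was 0.39, 4.23 and 0.75 in the same order. With Rab38 at its lower bound the medians were the same. Rab32, Rab38, Rab39 and Rab7b were higher in both DC and TDC than in T, and Rab12, Rab20 and Rab34 in TDC against T but not in DC against T. Macrophage genes of the marker list were high in the same TDC libraries, at the sums given above; their part in these levels was not tested.

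Rab20, a Rab of maturing phagosomes in macrophages, was at 10.9, 23.8 and 17.1 CPM in T, 10.9, 15.1 and 13.7 in DC and 560.1, 218 and 192 in TDC. Every TDC library was far above every control, and replicate 1 was the highest of the TDC. The log2 fold change was 4.23 ± 0.51 against T (adjusted p = 0.000169) and 4.61 ± 0.52 against DC (adjusted p = 0.000503). Without TDC replicate 1 these values were 3.60 (adjusted p = 0.000174) and 3.96 (adjusted p = 0.000642). An annotated noncoding gene on the other strand, E230013L22Rik, overlaps 356 exonic bases of Rab20, and it had 13 reads in T, 32 in DC and 728 in TDC. With the strand setting of the counting not given, reads of this pair cannot be fully assigned, although Rab20 itself had 2579 to 6248 reads in each TDC library.

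Rab34, which places lysosomes near the nucleus and acts on macropinosomes, was at 0.42, 2.17 and 0 CPM in T, 0.38, 0.97 and 0 in DC and 55.3, 25.3 and 14.7 in TDC. TDC were above both controls, by log2 fold changes of 5.17 ± 1.43 (adjusted p = 0.0187) and 6.14 ± 1.52 (adjusted p = 0.0222). Without TDC replicate 1 neither comparison passed (4.56, adjusted p = 0.0571, and 5.51, adjusted p = 0.0686). The call against T was also lost without T replicate 1 (4.86, adjusted p = 0.0685), and that against DC without DC replicate 1 (6.04, adjusted p = 0.0793) or TDC replicate 2 (6.23, adjusted p = 0.0541). Since 44 of the 50 T reads and 14 of the 24 DC reads were in replicate 2, the fold changes were 7.29 without T replicate 2 and 7.13 without DC replicate 2.

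Rab12, which sends transferrin receptor to lysosomes, was at 30.5, 16.6 and 21.3 CPM in T, 19.95, 18.9 and 23.3 in DC and 52.6, 47.7 and 60.8 in TDC. The step was modest but without overlap: a log2 fold change of 1.24 ± 0.34 against T (adjusted p = 0.0177) and 1.38 ± 0.34 against DC (adjusted p = 0.0221). Scaling to library size alone gave 0.62 (adjusted p = 0.228) and 1.07 (adjusted p = 0.0957), and with no low-count filter the adjusted p were 0.0552 and 0.0541. The call against T was lost without T replicate 2 (1.05, adjusted p = 0.0742), T replicate 3 (0.0618) or TDC replicate 3 (0.0766), and that against DC without DC replicate 1 (0.0749), DC replicate 2 (0.0703), TDC replicate 2 (0.0668) or TDC replicate 3 (0.0982), and with the replicate number as a block (0.0530).

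Rab32 and Rab38 are close relatives that build lysosome-related organelles such as melanosomes. Rab32 was at 4.49, 9.57 and 3.65 CPM in T, 224, 244 and 179 in DC and 313, 259.6 and 256 in TDC. Both DC (log2 fold change 5.19 ± 0.44, adjusted p = 2.33e-05) and TDC (5.54 ± 0.44, adjusted p = 1.4e-05) were higher than T, and between TDC and DC the value was 0.36 ± 0.36 (adjusted p = 0.580). Rab38 had no read in T and was at 13.6, 12.6 and 12.98 CPM in DC and 69.6, 36.1 and 42.4 in TDC. Against a floor of 3 reads over the T libraries (0.0556 CPM), it was at least 235-fold higher in DC (adjusted p = 3.39e-05) and at least 889-fold higher in TDC (adjusted p = 1.25e-05). Unlike Rab32, it was also higher in TDC than in DC, by 1.92 ± 0.42 (adjusted p = 0.0180). That last call was lost without DC replicate 1 (adjusted p = 0.0591), DC replicate 2 (0.0507), TDC replicate 1 (1.59, 0.0688) or TDC replicate 3 (0.0510), and with the replicate number as a block (0.0548).

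Rab39, the mouse gene of Rab39a, is found on late endosomes and phagosomes and has been tied to cross-presentation, the loading of engulfed antigen on MHC class I. It was at 0.91, 0 and 0 CPM in T, 19.9, 19.7 and 23.3 in DC and 44.5, 37.8 and 43.8 in TDC. It rose by 6.22 ± 1.12 in DC (adjusted p = 0.00252) and 7.23 ± 1.16 in TDC (adjusted p = 0.00103) against T. All 13 T reads lay in replicate 1, so the size of these folds rests on that library, without which T had no read (adjusted p = 8.01e-05 and 4.81e-05). Without T replicate 2 or T replicate 3 they were 5.58 and 5.60 in DC and 6.59 and 6.61 in TDC. The TDC libraries were above those of DC without overlap, at a log2 fold change of 1.00 ± 0.85 (adjusted p = 0.495).

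Rab7b, which returns cargo from late endosomes to the Golgi and dampens Toll-like receptor traffic, had the opposite order. It was at 0, 1.43 and 0 CPM in T, 157, 255 and 225 in DC and 24.7, 26.2 and 84.4 in TDC. DC (log2 fold change 8.70 ± 1.27, adjusted p = 0.000695) and TDC (6.46 ± 1.17, adjusted p = 0.0021) were both higher than T. All 29 T reads were in replicate 2, without which both calls stood (adjusted p = 0.000168 and 0.000281), and without TDC replicate 3 the value for TDC was 5.64 (adjusted p = 0.00677). TDC were below DC without overlap, by -2.24 ± 0.93, which did not pass the main test (adjusted p = 0.143). Leaving out T replicate 2 made it pass (-2.23, adjusted p = 0.0296), as did limma-voom (-2.45, adjusted p = 0.00565) and a fit of the 2 groups alone (adjusted p = 0.0333).

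Rab7 itself, the defining Rab of late endosomes and lysosomes, was at 115, 164 and 148 CPM in T, 242, 172 and 193 in DC and 254, 244 and 216 in TDC. Its log2 fold change of TDC against T was 0.74 ± 0.28, without overlap but above the threshold (adjusted p = 0.0619; 0.0258 by DESeq2's Wald test, 0.0401 by limma-voom). Rab24, linked to autophagosomes, was at 201, 287 and 181 CPM in T, 172, 418 and 146 in DC and 224, 79.9 and 118 in TDC, with overlap in every comparison. Its exons overlap those of Prelid1 on the other strand over 1258 bases, and Prelid1 had 1402 to 7065 reads per library, so Rab24 values are uncertain. Rab29 was at 21.8 to 58.2 CPM in T and 68.2 to 114 in TDC (log2 fold change 1.14 ± 0.43, adjusted p = 0.0647). Rab9 overlapped in all 3 comparisons.

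**Figure D2:**
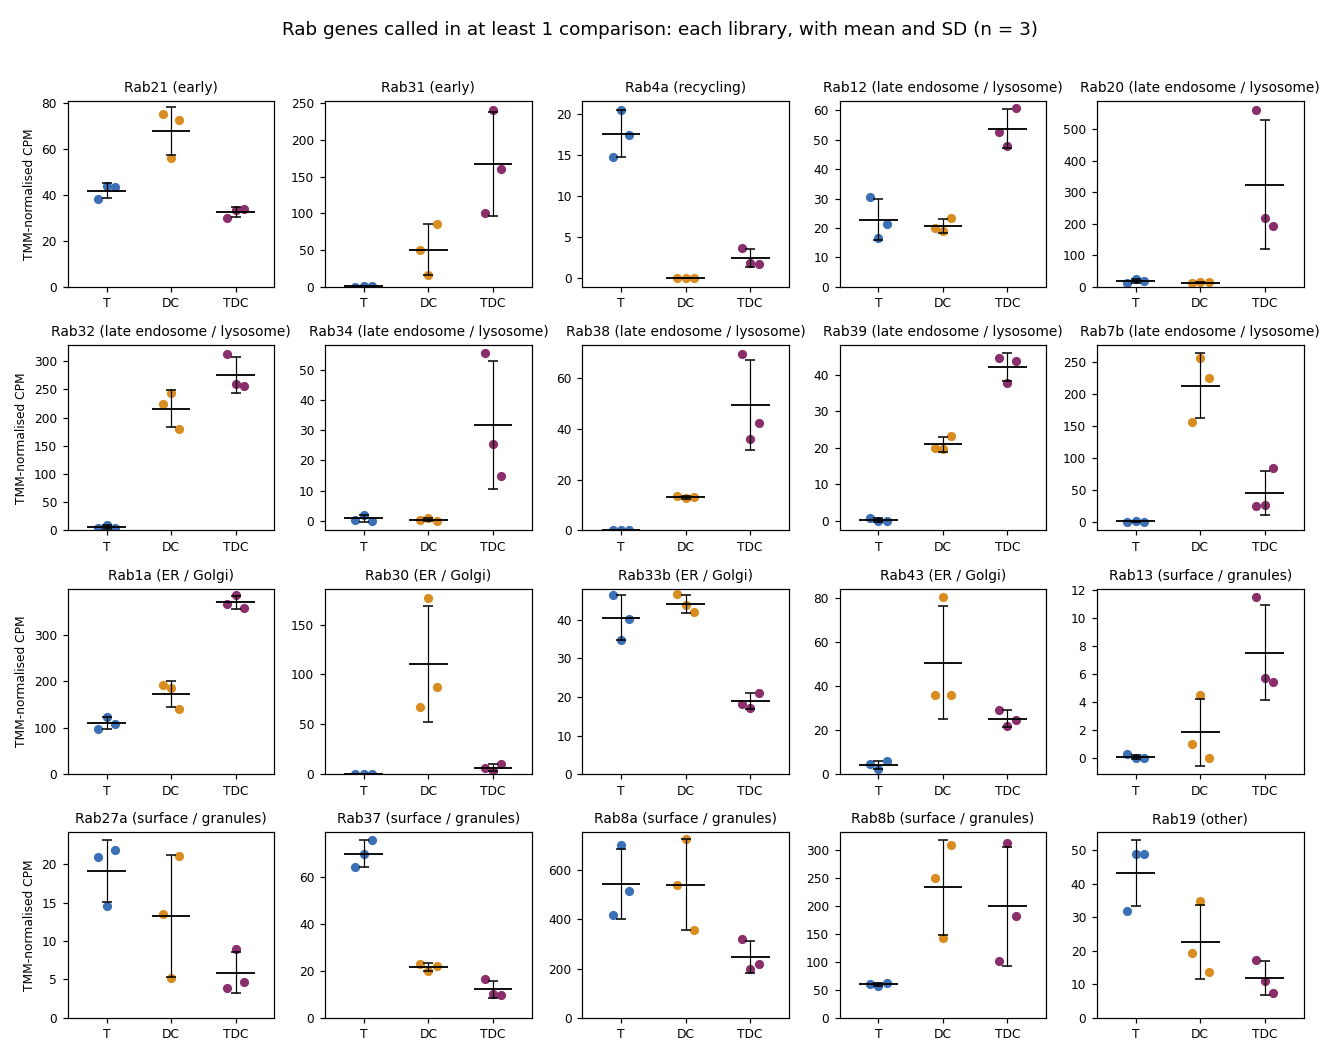
TMM-normalised CPM (y axis, linear) of the 20 Rab genes called in at least 1 comparison, with each library a point and the mean and SD over the 3 libraries of T, DC and TDC. Rab20 and Rab34 are high in TDC alone, Rab7b and Rab30 are highest in DC, Rab32, Rab38 and Rab39 are high in both, and Rab4a, Rab19 and Rab37 are highest in T.

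Traffic between the endoplasmic reticulum (ER) and the Golgi uses Rab1 and Rab2, and Rab6, Rab30, Rab33b and Rab43 sit at the Golgi. Of 11 members listed 10 were tested: 2 were higher in DC than in T, TDC against T gave 3 higher and 1 lower, and TDC against DC gave 1 higher and 2 lower. The shares higher were 20%, 30% and 10%, beside 15.4%, 21.8% and 9.55% of all genes, and those lower in the TDC comparisons were 10% and 20%, beside 11.2% and 4.6%. Medians were near those of all genes (0.17, 0.23 and 0.01). Rab30, a Golgi Rab, had no read in T and was at 67.8, 177 and 87.2 CPM in DC and 6.45, 3.23 and 10.0 in TDC. DC stood above both other populations. Against the floor of 3 reads it was at least 1991-fold higher in DC than in T (adjusted p = 4.78e-05) and at least 118-fold higher in TDC than in T (adjusted p = 0.000253). TDC were lower than DC by a log2 fold change of -4.08 ± 0.59 (adjusted p = 0.00304), and this call stood on leaving out each of the 9 libraries. The summed conventional DC markers also lay below DC in TDC, at the sums given above. Of that list Zbtb46, Flt3, Xcr1, Clec9a and Cd209a were lower in TDC than in DC. In edgeR's test H2-Ab1 (adjusted p = 0.128), Itgax (0.0935) and Cd74 (0.0546) did not pass. The part of these markers' pattern in Rab30 was not tested.

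Rab43, which acts at the ER and Golgi and has been tied to cross-presentation by DC, was at 4.70, 2.12 and 5.86 CPM in T, 35.8, 80.1 and 35.8 in DC and 29.2, 21.7 and 24.6 in TDC. It was higher than in T in both DC (log2 fold change 3.58 ± 0.52, adjusted p = 0.00066) and TDC (2.57 ± 0.50, adjusted p = 0.00306), and the DC and TDC libraries did not overlap (-1.01 ± 0.47, adjusted p = 0.196). An annotated gene on the same strand, Gm45140, shares 4164 exonic bases with it, and reads in the shared part could not be assigned to either.

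Rab1a, the Rab of ER-to-Golgi transport, was at 97.5, 123 and 107 CPM in T, 193, 185 and 139.5 in DC and 367, 384 and 358 in TDC. TDC were higher than T (1.76 ± 0.27, adjusted p = 0.000693) and higher than DC (1.10 ± 0.26, adjusted p = 0.0188), with libraries that differed little among themselves. The call against DC was lost without DC replicate 3 (0.97, adjusted p = 0.0682), without TDC replicate 2 (1.03, adjusted p = 0.0668), with no low-count filter (adjusted p = 0.0577), with library size alone (0.81, adjusted p = 0.0503) and with the replicate number as a block (adjusted p = 0.0502). Rab33b, which links the Golgi to autophagosome formation, moved the other way, with 46.5, 34.8 and 40.3 CPM in T, 46.6, 43.8 and 42.0 in DC and 18.3, 17.2 and 21.1 in TDC. Log2 fold changes in TDC were -1.10 ± 0.30 against T (adjusted p = 0.0165) and -1.23 ± 0.30 against DC (adjusted p = 0.0210). Neither call held without TDC replicate 2 (adjusted p = 0.0624 and 0.0792) or without the filter (0.0772 and 0.0831). The first was also lost without T replicate 1 (0.0638), and the other without DC replicate 1 (0.0705) or TDC replicate 1 (0.0534), and with the replicate number as a block (0.0626).

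Rab2a, which acts early in the secretory path, was at 229, 389 and 233 CPM in T, 209.5, 328 and 109.6 in DC and 308, 233 and 235 in TDC, and its largest log2 fold change was -0.39 ± 0.40 (DC against T). The near relatives Rab1b, Rab2b, Rab6a and Rab6b did not pass in any comparison, nor did Rab18. Rab6b was at 12.1 to 17.7 CPM in T, above every DC library (4.73 to 7.72) and every TDC library (2.78 to 10.2), with log2 fold changes of -1.20 ± 0.59 (adjusted p = 0.177) and -1.38 ± 0.60 (adjusted p = 0.0995).

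The last large list holds the Rabs that carry vesicles from the Golgi to the surface or dock secretory granules. Of 12 members 9 were tested: 1 was higher and 1 lower in DC than in T, in TDC the count against T was 2 higher and 3 lower, and none passed between TDC and DC in edgeR's test. Against T the shares were 11.1% each way in DC, beside 15.4% and 8.41% of all genes, and 22.2% higher and 33.3% lower in TDC, beside 21.8% and 11.2%. Between TDC and DC, 2 of the 9 (Rab8a and Rab37) had an unadjusted p under 0.05, and Rab8a passed under limma-voom (adjusted p = 0.0325) and DESeq2's Wald test (0.0167). Rab37, a granule Rab described in mast cells, was at 64.0, 69.7 and 75.5 CPM in T, 23.0, 19.8 and 22.0 in DC and 16.4, 10.2 and 9.75 in TDC. It fell in DC (log2 fold change -1.69 ± 0.33, adjusted p = 0.00381) and in TDC (-2.52 ± 0.34, adjusted p = 0.000315) against T, and these calls stood on leaving out each library. TDC and DC did not overlap (-0.83 ± 0.33, adjusted p = 0.121).

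Rab8a and Rab8b serve transport from the trans-Golgi network and recycling endosomes to the plasma membrane. Rab8a was at 417, 699 and 515 CPM in T, 537, 725 and 357 in DC and 320.3, 199 and 217 in TDC, so every TDC library was below every control. The log2 fold change was -1.15 ± 0.36 against T (adjusted p = 0.0301) and -1.14 ± 0.36 against DC (adjusted p = 0.0589). The first was lost without T replicate 2 (-0.92, adjusted p = 0.112), T replicate 3 (0.0636), TDC replicate 2 (0.0813) or TDC replicate 3 (0.0713), and with the replicate number as a block (0.0516). The second passed without DC replicate 3 (0.0364), without TDC replicate 1 (0.0450), with a 10 CPM filter (0.0347) and with upper-quartile (0.0444) or library size scaling (0.00968).

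Rab8b was at 61.1, 56.3 and 61.9 CPM in T, 249, 142 and 309 in DC and 102, 313 and 182 in TDC. It was higher than in T in both DC (1.96 ± 0.44, adjusted p = 0.00803) and TDC (1.73 ± 0.43, adjusted p = 0.0115), with wide spread among the DC and TDC libraries. The TDC call was lost without TDC replicate 2 (1.24, adjusted p = 0.0636) and with library size alone (1.14, adjusted p = 0.0793). Rab27a, which docks lytic granules in cytotoxic T cells, was at 21.0, 14.5 and 21.9 CPM in T, 13.6, 5.15 and 21.0 in DC and 3.94, 8.91 and 4.69 in TDC. TDC were lower than T (-1.70 ± 0.59, adjusted p = 0.0473), but only just: the call was lost without any T or TDC library or DC replicate 1 (adjusted p 0.0533 to 0.153), without the filter (0.0642) and with the replicate number as a block (0.105).

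Rab13, known from epithelial junctions, lies below the 10 CPM used to choose genes for full values, and it is given because it was called. It was at 0.28, 0 and 0 CPM in T, 0.99, 4.52 and 0 in DC and 11.5, 5.68 and 5.43 in TDC. The log2 fold change of TDC against T was 6.36 ± 1.91 (adjusted p = 0.0264), resting on 4 T reads, and it was lost without any 1 TDC library, T replicate 2 or T replicate 3 (adjusted p at most 0.0831). Rab10, which carries vesicles to the surface in many cells, was at 231, 227 and 230.1 CPM in T, 318, 203 and 265 in DC and 320.2, 425 and 369 in TDC. TDC were above T without overlap (0.69 ± 0.27), at an adjusted p of 0.0752 in edgeR's test, 0.0427 in DESeq2's and 0.0481 in limma-voom. Rab3a, Rab3d and Rab26 did not pass in any comparison.

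Of 7 members without a firm place among these routes 5 were tested, and 1 passed. Rab19 was at 31.9, 48.9 and 48.8 CPM in T, 19.2, 34.8 and 13.7 in DC and 17.2, 11.0 and 7.37 in TDC. It was lower in TDC than in T (-1.87 ± 0.47, adjusted p = 0.0125). Rab28, studied in cilia and photoreceptors, was at 31.0, 59.3 and 36.7 CPM in T, 37.7, 50.2 and 26.6 in DC and 84.5, 50.7 and 49.0 in TDC, with overlap in each comparison.

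Of the 27 tested members that passed in no comparison, 11 had log2 fold changes within 0.5 of 0 in all 3: Rab1b, Rab2a, Rab4b, Rab5a, Rab5c, Rab6a, Rab11b, Rab18, Rab22a, Rab23 and Rab40c. A missed threshold does not show equal levels, as the range over the 27 was wide: for TDC against T it ran from -1.78 (Rab26) to 3.62 (Rab42), both under 5 CPM in every library. The TDC values lay wholly above or below those of DC for 24 of the 47 members (51.1%), beside 34.9% of all genes tested, and 9 of these 24 were called. In DC against T the libraries did not overlap for 16 of the 47, beside 39.8% of all genes tested. For TDC against T this held for 27 of the 47, beside 52%.

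Several members belong to pairs or small families of close relatives, and their share of the family's reads in a library does not depend on scaling. A share describes reads, and no conversion to molecules was made. Rab1a took 38.6% to 47.7% of the reads of Rab1a and Rab1b in T, 42.9% to 57.4% in DC and 67.8% to 69.3% in TDC. Rab4a took 65.9% to 71.6% of its pair with Rab4b in T, at most 0.465% in DC and 22.7% to 26.6% in TDC. The TDC libraries lay outside both controls in each of these pairs. The Rab4 pair held as few as 91 reads in a DC library. Its shares are also uncertain, since reads in the part of Rab4b shared with Gm21983 could not be assigned.

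Rab7 held 99.1% to 100% of the reads of Rab7 and Rab7b in T, 40.2% to 60.7% in DC and 71.9% to 91.1% in TDC. DC thus had the largest part of Rab7b. Rab32 took all reads of its pair with Rab38 in T, 93.3% to 95.1% in DC and 81.8% to 87.8% in TDC. For Rab22a and Rab31, the Rab22a share was 97.9% to 100% in T, 36.0% to 84.7% in DC and 22.1% to 46.4% in TDC, with DC replicate 2 the highest of its group. Rab8a held 87.2% to 92.5% of its pair with Rab8b in T, 53.6% to 83.6% in DC and 38.9% to 75.8% in TDC, and the last 2 ranges overlapped. Rab11a, with 59.8% to 74.2% of its pair in DC, was above T (42.5% to 54.7%) and TDC (46.7% to 57.0%). With 3 libraries against 3, the two-sided exact permutation test cannot go below p = 0.1, and over 51 such tests of 17 shares the smallest Benjamini-Hochberg value was 0.268, so none of these differences could pass.

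**Figure D3:**
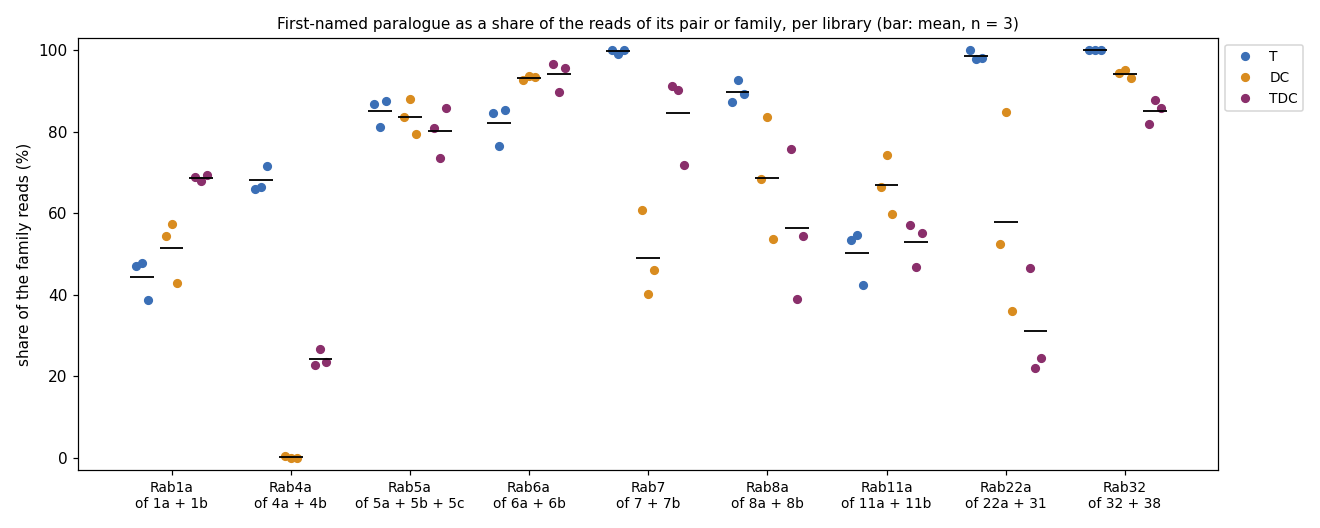
Share of the first-named gene in the reads of its pair or family (y axis, percent), with each library a point and the group mean a bar. Rab1a of Rab1a and Rab1b lies at 67.8% to 69.3% in TDC, above T and DC, and Rab4a of Rab4a and Rab4b lies at 22.7% to 26.6% in TDC, between DC near 0 and T.

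Summed over all 59 members, Rab RNA came to 2741, 3566 and 2888 CPM in T, 3961, 4658 and 3530 in DC and 5040, 4381 and 4095 in TDC. This order turned with the scaling: as a share of raw reads the sums were 0.355% to 0.400% in T, 0.396% to 0.407% in DC and 0.347% to 0.377% in TDC. The late list lay above T in both DC and TDC on either scale, with 411 to 593 CPM in T, 871 to 1272 in DC and 1079 to 1776 in TDC, or 0.0533% to 0.0666%, 0.0937% to 0.111% and 0.0855% to 0.129% of raw reads. The surface and granule list came to 800.4 to 1013 CPM in TDC and, just above, 1017 to 1171 in DC, with T overlapping both (810.3 to 1090). Its members did not move together. Of the 9 tested, 4 had a positive and 5 a negative log2 fold change in TDC against DC. The mean of Rab8a was 540 CPM in DC and 245 in TDC, and that of Rab10 was 262 and 372. As a share of raw reads the list was 0.0582% to 0.0802% in TDC, below both T (0.105% to 0.122%) and DC (0.0974% to 0.119%). For early Rabs the order T, DC, TDC in CPM (202 to 220.2, 267 to 325 and 326 to 469) did not hold in raw reads, where all 3 ranges overlapped. These sums are descriptions without a test.

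**Figure D4:**
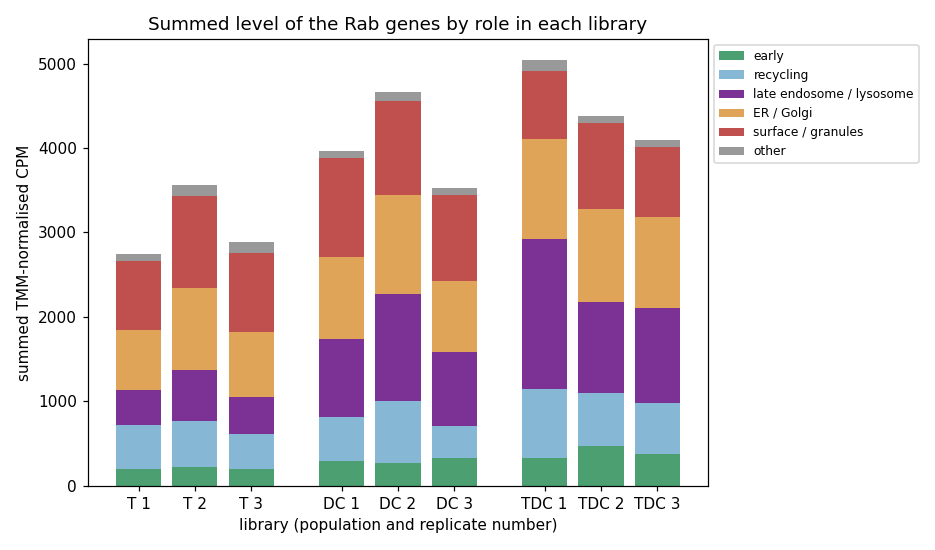
Summed TMM-normalised CPM of the Rab genes in each of the 9 libraries (bars from 0), stacked by role. The late endosomal and lysosomal segment spans 411 to 593 in T, 871 to 1272 in DC and 1079 to 1776 in TDC.

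Fold changes depend on where 0 is set. With library size alone as the scaling, the all-gene median of the log2 fold changes moved by -0.29 in DC against T, -0.61 in TDC against T and -0.29 in TDC against DC, and with upper-quartile factors by -0.08, -0.25 and -0.13. Calls that were higher made up 64.7%, 66% and 67.5% of all genes' calls in the main analysis, 50.2%, 42.9% and 53.1% with library size alone, and 61.3%, 57.5% and 61.4% with upper-quartile factors. For the members, 8 higher and 3 lower were called with library size alone in DC against T, 11 and 10 in TDC against T, and 4 and 5 in TDC against DC. Every member called in the main analysis kept its direction under all scalings.

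Rab proteins work through other proteins, and a list of 121 of these was read from the same fit: prenylation and extraction factors, exchange factors that load GTP, activating proteins (GAPs) that end the GTP state, and effectors. Of the 114 tested, 26 were higher and 7 lower in DC than in T (22.8% and 6.14%, beside 15.4% and 8.41% of all genes). TDC against T gave 37 and 11 (32.5% and 9.65%, beside 21.8% and 11.2%), and TDC against DC 9 and 9 (7.89% each way, beside 9.55% and 4.6%). Genes named are those of each group with the smallest adjusted p in TDC against DC.

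Rab3il1, an exchange factor that acts on Rab8 and Rab3 proteins, had no read in T and was at 13.1, 5.36 and 39.1 CPM in DC and 913, 768 and 559 in TDC. It was higher in TDC by at least 13430-fold against T (adjusted p = 5.19e-05) and a log2 fold change of 5.28 ± 0.75 against DC (adjusted p = 0.00277). Dennd4a, an exchange factor of Rab10, was at 97.7, 218 and 100.2 CPM in DC and 9.23, 14.4 and 11.9 in TDC (-3.55 ± 0.50, adjusted p = 0.00144). Dennd2d was at 20.7, 26.2 and 32.3 CPM in DC and 93.7, 71.1 and 76.9 in TDC (1.61 ± 0.30, adjusted p = 0.00517), and T was above both (205 to 282).

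Among the 33 GAPs tested, 1 was higher and 5 lower in TDC than in DC (3.03% and 15.2%, beside 9.55% and 4.6% of all genes). Tbc1d4, a GAP of Rab10 and related proteins known from insulin-driven transport, was at 886, 1019 and 1157 CPM in DC, 50.02, 114 and 152 in TDC and 9.27 to 13.5 in T. TDC were below DC (-3.28 ± 0.42, adjusted p = 0.000982). Tbc1d10c, a GAP expressed in lymphocytes, was at 551, 887 and 868 CPM in T, 233, 296 and 201 in DC and 28.2, 17.3 and 67.6 in TDC (-2.69 ± 0.49 against DC, adjusted p = 0.00521). Tbc1d2b went the other way, with 11.9, 8.14 and 29.8 CPM in DC and 104, 315 and 108 in TDC (3.40 ± 0.62, adjusted p = 0.00515).

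TDC against DC gave 4 of 44 effectors higher and 2 lower, and these shares (9.09% and 4.55%) were near the 9.55% and 4.6% of all genes. Rab11fip1, an effector of Rab11 on recycling endosomes, was at 92.4, 143 and 203 CPM in DC and 10.8, 21.6 and 18.1 in TDC (-3.11 ± 0.41, adjusted p = 0.00106). Appl2, an adaptor on early endosomes that binds Rab5, was at 40.0, 30.4 and 44.8 CPM in DC and 89.8, 135 and 135.1 in TDC (1.64 ± 0.39, adjusted p = 0.0195). Rilpl1, which binds Rab8 and Rab10 proteins, was at 1.91 to 3.41 CPM in DC and 20.6 to 28.0 in TDC (3.26 ± 0.65, adjusted p = 0.00742). Of the 7 prenylation and extraction genes, Rabggta, a subunit of the enzyme that attaches the lipid anchor, passed in TDC against DC (46.6, 39.0 and 68.1 CPM in DC, 127, 116 and 135 in TDC, 1.30 ± 0.30, adjusted p = 0.0159). Chml did not (adjusted p = 0.108).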

How the data were processed

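RNA of 3 sorted populations was measured in 3 libraries each, made with the Lexogen QuantSeq stranded kit per the labels' protocols, a chemistry that reads near the 3' end of transcripts. The deposited table holds the authors' whole-number read counts per gene symbol, not normalised. The submitters' processing notes list FastQC, MultiQC, Trimmomatic, STAR and featureCounts without versions, and name the build hg38 although the samples are mouse; the annotation and strand setting are not stated, so overlapping and antisense genes are uncertain.

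Counts were tested with edgeR 4.0.16 (R 4.3.3): filterByExpr (minimum count 10, minimum total 15), TMM factors, and 1 quasi-likelihood fit (robust) over the 9 libraries, which left 6 residual degrees of freedom. Benjamini-Hochberg adjustment ran over the 14708 genes kept, and SE is the log2 fold change divided by the root of F. Fold changes against groups without reads are bounds at 3 reads over the group (0.0556 CPM in T), and such floors and intervals cover counting error only. On simulated counts the test recovered 0 of 62 genes changed 2-fold, 21 of 70 changed 4-fold and 44 of 68 changed 8-fold in TDC against DC, and 0 of 81, 14 of 56 and 36 of 63 in TDC against T, over 14708 genes each.

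The Rab genes, the role lists and the list of partner genes were chosen with earlier results of these data known. Values per library are given for members called in any comparison with a group mean of at least 10 CPM and for the 2 most abundant members of each role, and for up to 3 partner genes per group, of which 1 is not reported here. Libraries of a group differed by far more than counting noise (chi-square per degree of freedom 62.4 to 250.4), so no pair agreed within counting noise. Whether pools shared animals is not stated, and p-values measure the spread between pools. Overlaps between genes were read from GENCODE vM21. Alternatives were DESeq2 1.42.0 (size factors and Wald test), limma-voom (limma 3.58.1), 2 other scalings, no filter, a 10 CPM filter, fits of 2 groups, a replicate block, and leaving out each library.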

Additional observations from a re-analysis of the deposited data

How the results depend on the processing

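No value changed its sign under any alternative when it had been called, and all 10 calls of DC against T stood on leaving out each library, as did 12 of 19 in TDC against T and 3 of 9 (Rab20, Rab30 and Rab4a) in TDC against DC. The count lower in TDC than in T was 6, and 10 with library size alone. Of 6 members higher in TDC than in DC, leaving out a library gave 3 to 6. For the 3 lower, library size alone and limma-voom each gave 5, no filter gave 1, and leaving out a library gave 1 to 3. The 5 above both controls became 3 with library size alone and 3 with no filter, and 2 to 4 on leaving out a library. The 1 below both became 4 with library size alone, 2 each with upper-quartile factors, the 10 CPM filter, DESeq2's Wald test and limma-voom, 0 with no filter, and 0 to 2 on leaving out a library. Among the fits that left out a library, the lowest counts in TDC against DC came without DC replicate 1 and without TDC replicate 2.

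The labels give each population replicates 1, 2 and 3. Deviations of same-numbered libraries had correlations of -0.384 to 0.224, over 0.1 in 2 of 9 pairs. Between T and DC all same-numbered values were positive (0.0481, 0.224 and 0.116), beside -0.177 to 0.0538 for T and DC libraries of unlike number. Same-numbered pairs with a TDC library had -0.384 to 0.0371. A shared deviation by number was thus seen between T and DC but not with TDC, as a description without a test. The column headers of the counts give the 3 populations of a number the same prefix, and their pool sizes match. The libraries of a number may thus come from 1 pool of spleens, although the labels do not say so. The main fit treated all 9 libraries as unpaired. With the replicate number as a block, TDC against DC gave 3 members higher and 1 lower, 2 were above both controls and 0 below both. The calls lost under the block were those of Rab12, Rab1a, Rab21, Rab33b and Rab38 in TDC against DC and of Rab27a and Rab8a in TDC against T.

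Of the comparisons of single members under an alternative, 1373 kept their side of the threshold, 62 lost a call and 22 gained 1; the cause was not tested. Depth limits the rarest members: 3 reads over the TDC libraries come to 0.0705 CPM. Apart from depth, no 2-fold change was recovered on simulated counts. In TDC against DC, however, Rab21 (2.09-fold) and Rab1a (2.15-fold) were called, so the simulation does not set a limit for each gene.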

Other observations

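DC replicate 2 and TDC replicate 1 were both the highest of their group for 17 of the 47 tested members, among them Rab24, Rab8a, Rab14, Rab2a and Rab20, and both the lowest for 10, among them Rab31, Rab8b, Rab5b and Rab3d. These are 36.2% and 21.3% of the members, beside 26.8% and 25.3% of all genes tested. Rab24, for example, was at 418 CPM in that DC library against 146 to 172 in the others, and at 224 CPM in that TDC library against 79.9 to 118. Rab5b, a Rab5 paralogue, was at 2.57 CPM there against 9.48 and 11.8 in DC, and at 3.32 CPM against 7.81 and 18.0 in TDC. Over all genes the deviations of these 2 libraries from their group means had a correlation of 0.363, the most positive of 27 pairs of libraries between groups (the most negative, DC replicate 2 with TDC replicate 2, was -0.384), as a description across genes, which are not independent replicates. The part of this pattern in the comparisons of TDC with DC was not tested; the calls without each library are given beside the genes above.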
